A study of Saccharomyces cerevisiae with 112 samples.

Results

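The genes described here encode the protein subunits of the budding yeast mitochondrial ribosome that carry the MRPL, MRPS or MRP20 names. They were chosen by systematic name, and no measured value entered the rule, though earlier results of these data were known. The list holds 44 nuclear genes. Of these, 42 of the 6319 genes in the deposited table were found and all 42 passed the filter on low values, 33 for the large subunit and 9 for the small subunit. MRPL25 and MRPL51 were not analysed here. Of the 42 proteins, 30 belong to families shared with the bacterial ribosome and 12 are mitochondria-specific.

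The mitochondrial ribosome translates the few messages encoded by mitochondrial DNA, most of which are core subunits of the respiratory chain and of the ATP synthase. Almost all of its proteins are encoded in the nucleus, made in the cytosol and imported. Yeast represses respiration on glucose, respires more on galactose and after glucose is used up, and the Hap2/3/4/5 complex activates many genes of respiration. The RNA-binding protein Puf3 binds many messages for mitochondrial translation. The cytosolic ribosome, by contrast, is encoded by highly expressed genes that are tied to growth.

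The study followed messenger RNA by RNA-seq in strains that differ in the silencing proteins Sir2, Sir3 and Sir4, as they left starvation. There were 8 strains, 7 times (midlog growth, starvation after 72 h at 30 °C, 5, 30 and 90 min after release into fresh medium, and 1 and 2 doublings after it) and 2 libraries per strain at every time, which makes 56 groups of 2. Total RNA was mixed with fission yeast total RNA as a spike-in, at 10 parts budding to 1 part fission yeast RNA by mass. Nothing in the labels ties the 2 libraries of a group to different cultures, and p-values therefore reflect library-to-library spread that could be technical.

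Sir2D and Sir4D came from the MATa deletion library and carried KanR in place of SIR2 or SIR4, and ura3, leu2, his3 and met15 were deleted as well. Sir3D was an S288C MATa strain with KANR in place of SIR3 and the same 4 markers. These 3 were compared with wt2, an S288C strain descended from BY4741 that is MATa and has lost ura3, leu2, his3, met15 and bar1. Sir3_3xT7 and Sir3_3xHA carried a tag-switch cassette on the C-terminus of Sir3, after and before the switch by estradiol, and the study calls them hypomorphs. They are 1 strain construct in 2 states and were compared with wt1, their parent, an S288C MATa strain that has lost leu2, lys2, met15, trp1, ura3 and bar1 and carries a Cre gene fused to the estradiol-binding domain, inserted with HIS3. The bar1 deletion is not listed for the 3 silencing deletions. oeSir3 was a W303 strain with HA-tagged Sir3 at ura3 under a galactose-driven promoter (GAL1 in its description, GAL10 in its genotype) and no chromosomal SIR3. It also lacked mat, hml, bar1 and lys2, had a modified HMR and ade2, can1, his3, leu2 and trp1 mutations, and grew in galactose (YPGal). All other strains grew in glucose (YPD). oeSir3 was compared with the mean of wt1 and wt2, so its strain background, its medium and its SIR3 level cannot be told apart.

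Levels are given as log2 median coverage of a coding sequence, which is a level per length. Except where the spike-in scale is named, each library was centred on its own median gene, so a level of 0 is that of the median gene and a level of 1 is 2 times it. A gene was called, and is said to have risen or fallen, at a limma adjusted p under 0.05 (Benjamini-Hochberg over 5567 tested genes) with a log2 difference of at least 1. Shares over all genes are given for the reported fit of each comparison. Counts from alternative fits, counts at an unadjusted p under 0.05 and counts of positive or negative differences stand without such a share. Those counts cannot show whether a change is particular to the members. Reads of a gene are given as the depth at the median base of its coding sequence, so they are not its total reads. The median gene of a library had between 4 and 119.5 such reads, and 5146 to 5975 genes had a depth above 0. The labels name no batch. The series were split into 2 sets, called batches here, by the value that stands for coverage of 0. In the separate batch that value differed between the libraries of a series, and in the shared batch it was the same throughout a series. Each shared series had its own value, so it is not shown that they were processed together. The separate batch holds replicate 1 of wt1, wt2, Sir2D, Sir3D, Sir3_3xT7 and Sir3_3xHA (4 to 57 median reads), and the shared batch holds the other 10 series. There were 12 libraries in doubt, with a median under 10 reads or a steep fall of level with coding length. Of these, 6 were wt2 replicate 1 (at all times but 1 doubling), and 1 was oeSir3 replicate 2 at starvation. The deleted gene lay below every wild-type library in its own strain: SIR2 was at -5.84 to -3.14 in Sir2D and -1.41 to 1.09 in the wild types, SIR3 at -5.87 to -3.04 in Sir3D and -2.84 to -0.68 in the wild types, and SIR4 at -5.91 to -3.28 in Sir4D and -3.25 to -0.84 in the wild types. The lowest and highest levels given for the deleted genes in their own strains are those of a gene with coverage of 0. Those ranges therefore reflect the centring of the libraries and not a varying level of message. SIR3 was at -0.09 to 4.30 in oeSir3.

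In wild-type midlog cells the mitochondrial ribosomal protein genes were expressed at moderate levels, mostly a little above the median gene. Over the 42 members the median of the mean levels was 1.30, a level 2.47 times that of the median gene, with quartiles of 0.69 and 2.03. Of the members, 39 lay above the median gene and 3 below it. The medians were 1.30 for the 33 large-subunit and 1.91 for the 9 small-subunit genes, and 1.40 for the 30 bacterial-type and 1.12 for the 12 mitochondria-specific ones. Each of these classes spread over more than the difference between them.

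MRPL39 (YML009C), the bL33 protein of the large subunit and the shortest member at 213 coding bases, had the highest mean level, at 3.63 ± 1.99 (SD, n = 4). Its levels were 3.86 and 2.21 in wt1 replicates 1 and 2 and 6.37 and 2.09 in wt2 replicates 1 and 2. MRPL20 (YKR085C), the mL58 protein, was next at 2.74 ± 0.82 (SD, n = 4), with levels of 2.24, 2.55, 3.94 and 2.22 in the same order of libraries. In both genes wt2 replicate 1 stood highest, and without it the means were 2.72 and 2.34. The lowest member was MRPL49 (YJL096W), the bL21 protein, with levels of -2.82, -1.80, -1.19 and -2.55. MRPS5 (YBR251W), the uS5 protein of the small subunit, was the next lowest, with levels of 0.37, -0.17, -0.52 and 0.02, close to the median gene in all 4 libraries. MRPL40, the uL24 protein, averaged -0.06. Over the 42 members, level and log2 coding length had a Pearson r of -0.52 for the mean of 4 libraries and -0.38 without wt2 replicate 1. Within the 4 libraries, r was -0.28, -0.34, -0.68 and -0.46, and members share their library and depth, so this is a description only.

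**Figure D1:**
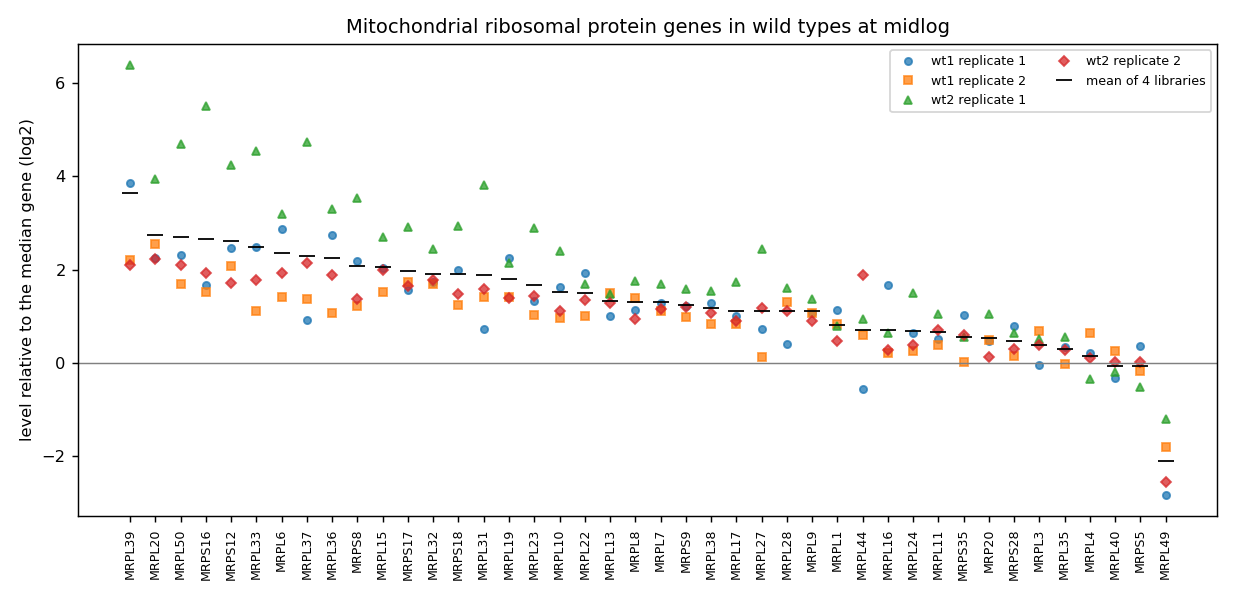
Level of each of the 42 members in the 4 wild-type midlog libraries, as log2 relative to the library's median gene, ordered by the mean (black bar). Most members lie between 0 and 3, MRPL49 lies below all others, and wt2 replicate 1 (triangles) stands above the other libraries for many short members.

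Starvation left the members near their midlog position among other genes. Relative to the median gene, 3 of 42 fell in starved wild types against midlog and none rose, while 21.5% of all tested genes fell and 22.6% rose. The members' median difference was 0.06, the same as over all genes. The differences ran from -1.76 to 0.94 with quartiles of -0.40 and 0.41, and 23 were positive and 19 negative. The median was 0.24 for small-subunit and 0.01 for large-subunit genes.

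The 3 members that fell were MRPL32 (YCR003W), MRPL20 and MRPS8 (YMR158W). MRPL32, the bL32 protein, which in yeast is cut by the mitochondrial m-AAA protease before it joins the ribosome, had starvation levels of 0.11, 0.14, 0.00 and 0.37 in wt1 replicates 1 and 2 and wt2 replicates 1 and 2, against midlog levels of 1.74, 1.69, 2.45 and 1.78. Its starved libraries all lay below its midlog libraries, and the difference was -1.76 ± 0.43 (SE; limma adjusted p = 3.74e-04). MRPL20 had levels of 0.88, 0.64, 1.75 and 1.30 at starvation, against 2.24, 2.55, 3.94 and 2.22 at midlog. It too did not overlap, with a difference of -1.60 ± 0.38 (limma adjusted p = 2.47e-04), or of -1.78 within the separate batch (limma adjusted p = 0.0513). MRPS8, the uS8 protein, had 0.86, 0.95, 1.23 and 0.72 at starvation, against 2.17, 1.22, 3.53 and 1.36 at midlog. Its groups overlapped by 1 library on each side, its difference was -1.13 ± 0.47 (limma adjusted p = 0.0350), and this call was lost without wt2 replicate 1 (-0.72, limma adjusted p = 0.306), without wt1 replicate 1 (-0.87, limma adjusted p = 0.214) and within the shared batch (-0.46, limma adjusted p = 0.102).

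The largest positive differences did not reach the threshold. MRPL16 (YBL038W), the uL16 protein, was at 1.73, 1.07, 2.38 and 1.39 in starved libraries, against 1.68, 0.20, 0.64 and 0.28 at midlog, a difference of 0.94 ± 0.40 (limma adjusted p = 0.0396). MRPS5 was at 0.72, 0.22, 1.12 and 0.87, against 0.37, -0.17, -0.52 and 0.02, a difference of 0.81 ± 0.17 (limma adjusted p = 6.56e-05). The groups of MRPS5 overlapped by 1 starved library. MRPS18 (YNL306W), the uS11 protein, was at 2.38, 2.20, 3.78 and 2.29, against 1.99, 1.25, 2.94 and 1.48, a difference of 0.75 ± 0.30 (limma adjusted p = 0.0302). All 3 genes were higher at starvation than at midlog in each of the 4 series. Without wt2 replicate 1 the differences were 0.78 for MRPL16 (limma adjusted p = 0.179), 0.61 for MRPS5 and 0.74 for MRPS18. MRPL16 passed without wt1 replicate 1 (1.14, limma adjusted p = 0.0321) and MRPS5 without wt2 replicate 2 (1.003, limma adjusted p = 9.31e-05).

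On the spike-in scale, which measures message per mass of total RNA, most genes were lower at starvation, with 71.9% of all genes called lower and 4.38% higher. By that measure 41 of 42 members fell and none rose, and their median of -1.96 equalled that of all genes. MRPL32 differed most, at -3.78 ± 0.67, and MRPL16 least, at -1.08 ± 0.46. The per-library medians of the members on this scale were -1.49 to -0.51 at starvation and 0.08 to 1.97 at midlog. In bulk RNA, fewer cells with a message and less message per cell cannot be told apart.

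In the first 5 min after release few members were called, though most of their differences were negative. Only 1 of 42 fell against starvation, where 7.98% of all genes did, and none rose, where 11.6% did. Of the 42 differences 37 were negative, with a median of -0.46 over the members and -0.17 over all genes. The share of all genes with a negative difference is not given here. MRPL38 (YKL170W), the uL14 protein at the interface of the subunits, was the 1 that fell. Its levels were 0.56, -0.20, -0.18 and 0.32 at 5 min, against 1.37, 0.78, 1.97 and 1.27 at starvation, with no overlap, and the difference was -1.22 ± 0.25 (limma adjusted p = 7.97e-05). It was -0.92 without wt2 replicate 1 and -0.97 within the shared batch, short of the threshold on the size of the change, and -1.48 within the separate batch (limma adjusted p = 0.0626). The count of 1 became 3 without wt1 replicate 1, 0 without wt2 replicate 1, 5 without wt2 replicate 2 and 6 within the shared batch.

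Small-subunit genes were at both ends of this step. MRPS12 (YNR036C), the uS12 protein of the decoding centre, had 2.70, 1.10, 3.21 and 1.74 at 5 min, against 2.89, 2.21, 4.77 and 2.76 at starvation (-0.97 ± 0.46, not called). MRPS17 (YMR188C), the uS17 protein, had 0.82, 1.52, 0.91 and 1.20, against 1.07, 2.97, 2.17 and 2.05 (-0.95 ± 0.51, not called). Both were lower at 5 min in all 4 series, and both passed within the shared batch (-1.06 for MRPS12 and -1.15 for MRPS17). MRPS12 also passed without wt2 replicate 2 (-1.10, limma adjusted p = 0.0480). MRPL17 (YNL252C), the mL46 protein, had 2.25, 1.28, 0.85 and 1.62 at 5 min, against 1.91, 1.01, 1.16 and 0.98 at starvation (0.23 ± 0.28). MRPS9 (YBR146W), the uS9 protein, had 1.42, 0.66, 0.36 and 1.19, against 0.85, 0.83, 0.27 and 0.88 (0.20 ± 0.18), and MRPS35 (YGR165W), the mitochondria-specific mS45 protein, had 0.56, 0.23, 0.28 and 0.72, against 0.37, 0.09, 0.81 and 0.28 (0.06 ± 0.20). These 3 overlapped between the times, and without wt2 replicate 1 they differed by 0.47, 0.26 and 0.30. With spike-in scaling no member was called (limma; 0 at an unadjusted p under 0.05), where 11.5% of all genes were, and the median difference was -0.07.

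Between 5 and 30 min the members moved with the median gene. None was called relative to it (limma; 6 of 42 at an unadjusted p under 0.05), where 27.3% of all genes were (12.5% higher and 14.8% lower), and the median difference was 0.01. With spike-in scaling all 42 differences were positive with a median of 1.08, equal to that of all genes, and 12 members rose, where 39.1% of all genes did. That count was 5 and 0 without wt1 replicates 1 and 2, 3 and 7 without wt2 replicates 1 and 2, and 2 without the libraries in doubt, and 24 with a replicate block. The members that led it on the spike-in scale were MRPS8 (1.82 ± 0.52), MRPL3 (YMR024W), the mL44 protein (1.81 ± 0.58), and MRPL19 (YNL185C), the uL11 protein (1.54 ± 0.45).

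Relative to the median gene, MRPS8 was at 1.01, 0.42, 0.80 and 0.74 at 30 min, against 0.93, -0.20, -0.05 and -0.70 at 5 min (0.75 ± 0.47, limma adjusted p = 0.208), and it passed within the shared batch alone (1.03, limma adjusted p = 0.00362). MRPL3 was at 0.29, 0.77, 0.80 and 0.39, against -0.03, 0.12, -0.58 and -0.19 (0.73 ± 0.24, limma adjusted p = 0.0122), with no overlap but a change under the threshold on size. MRPL19 was at 2.07, 1.20, 1.50 and 0.79, against 1.99, 0.60, 0.23 and 0.88 (0.46 ± 0.40). At the other end, MRPL28 (YDR462W), the mitochondria-specific mL40 protein, was at -0.16, 0.17, 1.35 and -0.42 at 30 min, against 1.36, 0.42, 1.18 and 0.92 at 5 min (-0.74 ± 0.33). It passed without wt1 replicate 2 (-1.05, limma adjusted p = 0.0485) and without wt2 replicate 1 (-1.11, limma adjusted p = 0.0113). MRPL17 was at 1.56, 0.54, 0.37 and 0.59, against 2.25, 1.28, 0.85 and 1.62 (-0.73 ± 0.28, limma adjusted p = 0.0316), lower in all 4 series. MRPS16 (YPL013C), the bS16 protein, was at 1.37, 1.71, 3.96 and 1.58, against 2.02, 2.26, 5.07 and 1.86 (-0.65 ± 0.58), and wt2 replicate 1 stood far above the other libraries at both times. Without that series the differences were 0.12 for MRPL19, 0.53 for MRPL3 and -0.44 for MRPS16.

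From 30 to 90 min 29 of 42 members had a positive difference, with a median of 0.22 (0.14 without wt2 replicate 1), but none was called (limma; 5 at an unadjusted p under 0.05), where 6.9% of all genes were. MRPL32, the member lowest relative to midlog at starvation, had the largest difference, with 0.33, 1.16, 1.01 and 1.54 at 90 min, against -0.77, 0.30, 0.26 and 0.66 at 30 min (0.90 ± 0.43, limma adjusted p = 0.167). MRPL6 (YHR147C), the uL6 protein, had 1.28, 1.51, 2.01 and 1.42, against 0.84, 0.59, 0.72 and 0.75 (0.83 ± 0.46). MRPL20 had 0.97, 1.89, 2.80 and 2.13, against 0.84, 1.27, 1.39 and 1.34 (0.73 ± 0.38). These 3 were higher at 90 min in all 4 series, and MRPL6 did not overlap between the times. The smallest differences were those of MRPL3 (-0.40, 0.55, 0.23 and -0.03, against 0.29, 0.77, 0.80 and 0.39; -0.47 ± 0.24), MRPL1 (YDR116C), the uL1 protein (0.86, -0.14, 0.39 and -0.60, against 1.16, 0.45, 0.29 and 0.08; -0.37 ± 0.37), and MRPL35 (YDR322W), the mL38 protein (0.33, -0.27, 0.03 and -0.06, against 0.73, 0.01, 0.46 and 0.30; -0.37 ± 0.21). On the spike-in scale none was called (limma; 0 at an unadjusted p under 0.05), where 1.17% of all genes were, and the median was 0.30.

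From 90 min to 1 doubling the differences turned the other way, with 31 of 42 negative and a median of -0.33, or of -0.15 without wt2 replicate 1. None was called (limma; 3 at an unadjusted p under 0.05), where 6.52% of all genes were. Leaving out wt2 replicate 2 brought 3 calls, with wt2 replicate 1 as the only wt2 series left, and a replicate block brought 1. MRPL37 (YBR268W), the mL54 protein, had -0.99, 0.97, -0.38 and 1.23 at 1 doubling, against 0.18, 1.50, 3.11 and 1.96 at 90 min (-1.48 ± 0.65, limma adjusted p = 0.129). MRPL33 (YMR286W), the uL30 protein, had 1.67, 0.80, 1.83 and 0.99, against 2.22, 1.40, 3.68 and 1.60 (-0.90 ± 0.48), and MRPL50 (YNR022C), the bL9 protein, had 1.42, 1.06, 1.60 and 1.31, against 1.72, 1.73, 3.44 and 1.91 (-0.85 ± 0.39). All 3 were lower at 1 doubling in each series, by most in wt2 replicate 1, and without that series the differences were -0.78 for MRPL37, -0.59 for MRPL33 and -0.55 for MRPL50. MRPL4 (YLR439W), the uL29 protein, had 0.16, 0.16, 0.03 and -0.02 at 1 doubling, against -0.38, -0.20, -0.65 and -0.37 at 90 min (0.48 ± 0.30), without overlap. MRPL1 had 1.22, 0.02, 0.95 and 0.24, against 0.86, -0.14, 0.39 and -0.60 (0.48 ± 0.37), and MRP20 (YDR405W), the uL23 protein at the exit of the peptide tunnel, had 0.54, 0.20, 0.59 and -0.22, against 0.00, -0.09, 0.23 and -0.64 (0.40 ± 0.29). The median of the members was 0.08 after each library was adjusted for coding length. That adjustment also centres a library on its mean in place of its median gene, and the part due to length was not tested. On the spike-in scale the median was 0.08, and none was called (limma, 0 at an unadjusted p under 0.05), where 0.934% of all genes were.

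**Figure D2:**
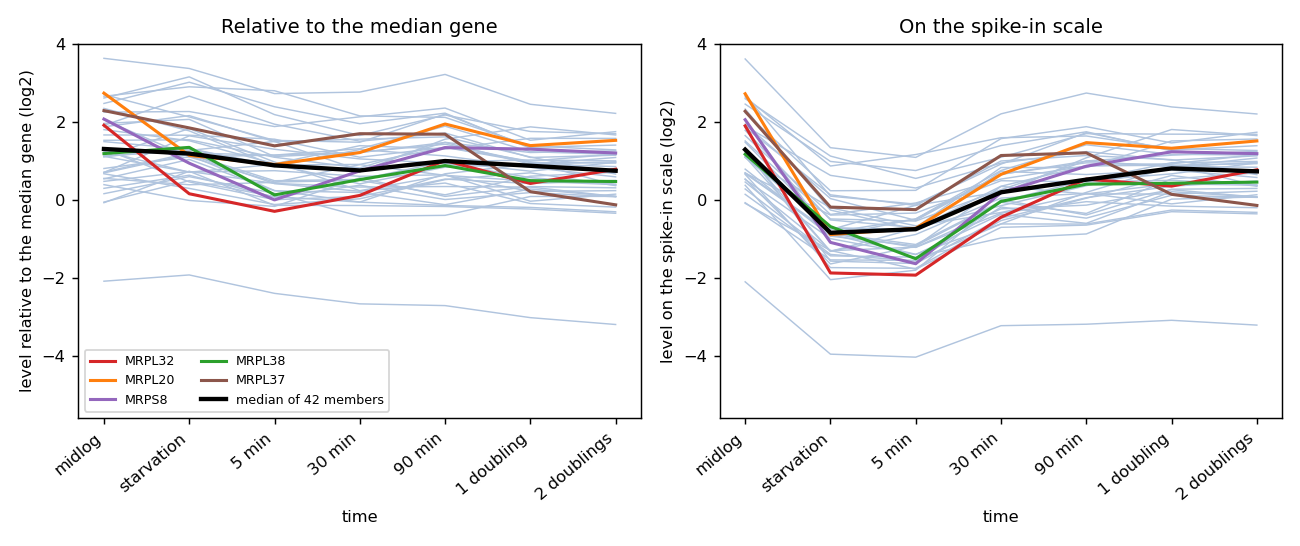
Mean level of each member over the 4 wild-type libraries at each time, in log2 relative to the median gene (left) and on the spike-in scale (right), with 5 members in colour and the median of the 42 in black. The median stays between 0 and 2 on the left at all times, and on the right it drops at starvation and is higher again from 30 min on.

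At 2 doublings all 42 members were lower than at midlog relative to the median gene in the mean of wt1 and wt2. Within wt1 alone 39 were lower and 3 higher, and within wt2 alone 40 were lower and 2 higher. The share of all genes that were lower is not given here. In the mean of wt1 and wt2 the median was -0.60 over the members and -0.0015 over all genes, but none was called (limma; 19 of 42 at an unadjusted p under 0.05). Only 0.18% of all genes were called in this comparison, and their share at an unadjusted p under 0.05 is not given here. The median was -0.37 without wt2 replicate 1, with none called, and -0.96 without wt2 replicate 2, with 14 called. A replicate block, with all libraries kept, called 8 members. The shares of all genes called in these alternative fits are not given here. MRPL37 had 0.02, 0.49, -2.25 and 1.22 at 2 doublings, against 0.92, 1.38, 4.72 and 2.14 at midlog (-2.42 ± 0.65, limma adjusted p = 0.122). MRPL39 had 3.29, 1.15, 3.00 and 1.43, against 3.86, 2.21, 6.37 and 2.09 (-1.41 ± 0.88), and MRPS16 had 1.16, 0.98, 1.68 and 1.31, against 1.68, 1.51, 5.51 and 1.93 (-1.38 ± 0.58). Each was lower in all 4 series, and wt2 replicate 1 gave the largest drop in each. In that series the median gene had 8 reads at midlog and 9 at 2 doublings, so low levels there rest on few reads. The lowest read count of MRPL37 in any library was 2. Without that series the differences were -0.91 for MRPL37, -0.74 for MRPL39 and -0.58 for MRPS16, none of them called. MRPL1, MRPL3 and MRPL4 differed least. MRPL1 had 0.80, 0.09, 1.60 and 0.34 at 2 doublings, against 1.13, 0.83, 0.79 and 0.46 at midlog (-0.10 ± 0.37). MRPL3 had 0.04, 0.61, 0.06 and 0.52, against -0.05, 0.69, 0.52 and 0.39 (-0.08 ± 0.24). MRPL4 had -0.33, 0.37, 0.17 and 0.15, against 0.22, 0.65, -0.35 and 0.11 (-0.07 ± 0.30). Without wt2 replicate 1 these 3 differed by -0.33, 0.06 and -0.19. On the spike-in scale none was called (limma; 8 at an unadjusted p under 0.05), where 0.0359% of all genes were, and a replicate block called 1 member.

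The per-library median of the 42 members kept to a narrow band in the wild types. Its lowest, median and highest values over the 4 libraries were 1.05, 1.18 and 1.71 at midlog, 1.01, 1.20 and 1.30 at starvation, and 0.49, 0.67 and 1.02 at 5 min. They were 0.50, 0.66 and 0.92 at 30 min, 0.79, 0.85 and 1.45 at 90 min, 0.66, 0.89 and 0.97 at 1 doubling, and 0.60, 0.79 and 0.97 at 2 doublings. The libraries at 5 and 30 min all lay below those at midlog, and those at the 2 ends of the course overlapped in no library, with 0.97 the highest at 2 doublings and 1.05 the lowest at midlog.

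The other genes of mitochondrial translation, taken as fixed lists, are set here beside 22.6% of all genes that rose and 21.5% that fell at starvation, and a median of 0.06 over all genes. Of 23 other small-subunit genes (RSM and other names), 2 fell and none rose, with a median of -0.12. RSM26 was lowest at -1.52 ± 0.34 (limma adjusted p = 1.05e-04) and RSM10 highest at 0.86 ± 0.33. Of 7 other large-subunit genes none was called (limma; 1 at an unadjusted p under 0.05), with a median of 0.47, and they ran from IMG2 at 0.19 to RTC6 at 0.69. Of 8 translation factors 3 rose, with a median of 0.58. TUF1, the mitochondrial elongation factor Tu, was at -0.20 ± 0.22, and MEF2, a factor in ribosome recycling, was at 2.67 ± 0.28 (limma adjusted p = 2.44e-12). Of 12 mitochondrial tRNA synthetases none was called (limma; 5 at an unadjusted p under 0.05), with a median of 0.32 between MSW1 at -0.90 ± 0.23 and MSK1 at 0.86 ± 0.22.

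Of 14 activators of the translation of single mitochondrial messages 2 rose, with a median of 0.52, from CBP1 at -0.03 to PET494, which acts on the COX3 message, at 1.29 ± 0.28 (limma adjusted p = 1.01e-04). Of 9 genes of ribosome assembly and membrane insertion, MRM2, an rRNA methyltransferase, rose (1.05 ± 0.44, limma adjusted p = 0.0376) and OXA1, the insertase that receives new mitochondrial proteins, fell (-1.01 ± 0.22, limma adjusted p = 6.90e-05). Of 4 genes of mitochondrial DNA expression none was called (limma; 1 at an unadjusted p under 0.05), from ABF2 at -0.96 to RPO41, the mitochondrial RNA polymerase, at 0.37.

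The respiratory chain and the cytosolic ribosome moved far more at starvation, in opposite directions. Of 30 tested nuclear genes of the respiratory chain and ATP synthase 28 rose, with a median of 2.87, from ATP17 at 1.12 ± 0.51 to SDH2, a subunit of succinate dehydrogenase, at 5.54 ± 0.48 (limma adjusted p = 3.60e-15). On the spike-in scale 13 of the 30 rose, where 4.38% of all genes did, with a median of 0.85. Of 104 tested cytosolic ribosomal protein genes 97 fell, with a median of -3.40, and on the spike-in scale 102 fell, where 71.9% of all genes did, with a median of -5.41. The data held 136 genes of the cytosolic list, and the counts and medians cover only the 104 that passed the filter on low values. Cytosolic ribosomal protein genes often come in near-identical pairs. How the counting treated reads shared by a pair is not given, so their single values and the make-up of the 104 are uncertain. The members' 3 falls of 42 and median of 0.06 lay between these lists. HAP4, the glucose-repressed subunit of the Hap complex, rose (4.13 ± 0.50, limma adjusted p = 2.25e-10), and PUF3 did not pass (-0.35). After release, at 5 min against starvation 50 of 104 cytosolic genes rose, where 11.6% of all genes did, and 6 of 30 respiratory genes fell, where 7.98% did. At 30 min against 5 min 38 cytosolic genes rose and 1 fell while 29 of 30 respiratory genes fell, with a median of -2.15, where 12.5% of all genes rose and 14.8% fell.

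**Figure D3:**
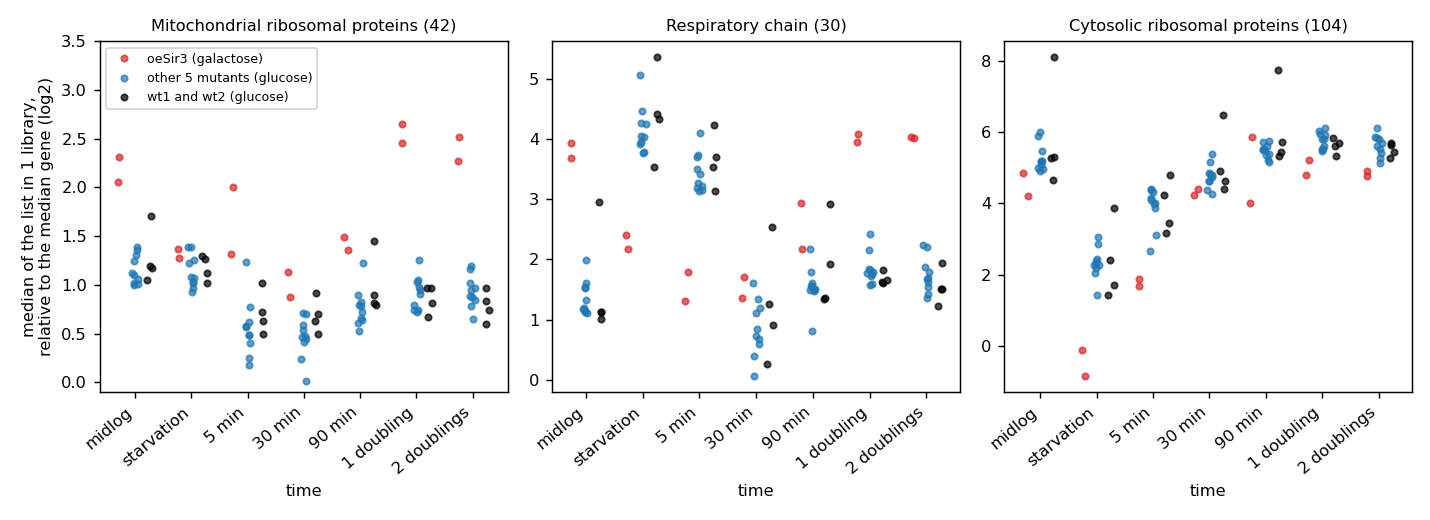
Median level of 3 gene lists in each library at each time, in log2 relative to the library's median gene, for oeSir3 (red), the other 5 mutants (blue) and the wild types (black); the number of genes is in each title, and each panel has its own vertical scale. The members stay between 0 and 2.7, while the respiratory chain peaks and the cytosolic ribosome dips at starvation in glucose-grown strains.

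In the silencing deletions and the tagged strains no member passed the test against wild type in the mean of the 7 times. The share of all genes called was 0.521% in Sir2D, 0.521% in Sir3D, 0.701% in Sir4D, 0.108% in Sir3_3xT7 and 0.0539% in Sir3_3xHA. No member reached an unadjusted p under 0.05 in any of these 5 comparisons (limma). The members' median difference from wt2 was -0.31 in Sir2D, with 39 of 42 negative, and it was -0.06 when wt2 replicate 1 was left out and -0.16 within the shared batch. It was -0.02 in Sir3D and -0.12 in Sir4D, within ranges of -1.001 to 0.26 and of -1.07 to 0.52. Without wt2 replicate 1 it was 0.16 in Sir3D and 0.06 in Sir4D. Within the shared batch, which also lacks that series, it was 0.07 in Sir3D and 0.06 in Sir4D. Against wt1 it was 0.10 in Sir3_3xT7 and -0.11 in Sir3_3xHA, within ranges of -0.39 to 0.46 and of -0.47 to 0.40, and -0.04 and -0.02 within the shared batch. Leaving out wt2 replicate 2, so that wt2 replicate 1 was the only control series, brought 2 calls in Sir2D and 1 in Sir4D.

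Whether the course over the 7 times differed from wild type was asked with an F test of the strain's 6 differences in response. None was called in Sir2D, Sir3D, Sir4D, Sir3_3xT7 or Sir3_3xHA (limma; 2, 2, 0, 0 and 0 of 42 at an unadjusted p under 0.05 in that order), where 0.162%, 0.144%, 0.108%, 0.0898% and 0% of all genes were. Without wt2 replicate 2 the counts of members were 7 in Sir2D, 8 in Sir3D and 8 in Sir4D, with wt2 replicate 1, in doubt at 6 of the 7 times, as the only control series. A replicate block gave 2 in Sir3D. The shares of all genes called in these alternative fits are not given here. A p that misses the threshold does not show that the responses are alike. Within each strain, the members' median difference of starvation from midlog was -0.01 in Sir2D, 0.05 in Sir3D, 0.24 in Sir4D, 0.08 in Sir3_3xT7 and 0.08 in Sir3_3xHA, against 0.02 in wt1 and -0.03 in wt2. At 5 min against starvation it was -0.65, -0.62, -0.44, -0.59 and -0.64 in these 5 mutants in the same order, against -0.38 in wt1 and -0.71 in wt2. At 2 doublings against midlog it was -0.34, -0.18, -0.21, -0.22 and -0.15, against -0.38 in wt1 and -0.92 in wt2. Relative to the median gene, the members' median difference at 5 min was thus negative in each glucose-grown strain. The median over all genes at this step is not given for the single strains. On the spike-in scale the members' median difference at 5 min was -0.41, 0.08, 0.39, -1.33 and -0.11 in the 5 mutants in that order. It was -0.45 in wt1 and 0.16 in wt2 on that scale.

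**Figure D4:**
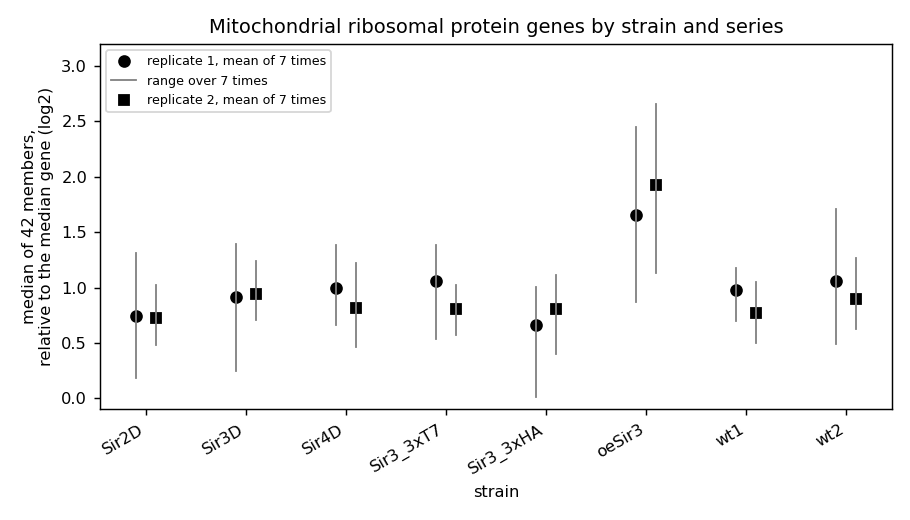
Median of the 42 members relative to the median gene (log2) in each of the 16 series, as the mean of 7 times (circle for replicate 1, square for replicate 2) with the range over times (line). The 2 oeSir3 series lie above 1.5 and the other 14 between 0.6 and 1.1.

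oeSir3, in galactose, was the strain in which the members were higher. In the mean of the 7 times, 9 of 42 rose against the wild types and none fell, where 4.35% of all genes rose. The members' median difference was 0.71, against -0.03 over all genes, and 40 of 42 were positive. The 9 were MRPL28 (1.65 ± 0.24), MRPL40 (1.41 ± 0.26), MRPL24, the bL28 protein (1.37 ± 0.27), MRPL38 (1.31 ± 0.22), MRPL3 (1.09 ± 0.23), MRPL35 (1.06 ± 0.21), MRPL9, the uL3 protein (1.02 ± 0.18), MRPL8, the bL17 protein (1.02 ± 0.27), and MRPS5 (1.01 ± 0.16). Of these, 8 belong to the large and 1 to the small subunit, but the median difference was 0.85 over the 9 small-subunit genes and 0.70 over the 33 large-subunit ones. Only MRPL39 (-0.33 ± 0.89) and MRPL20 (-0.06 ± 0.28) were negative. The count was 5 to 12 when any 1 series was left out, with 5 without oeSir3 replicate 2, and it was 20 within the shared batch, with a median of 0.98; there each wild type has 1 series, which is assumed to vary like the other groups.

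MRPL28 had the smallest adjusted p (0.00126, limma). In oeSir3 replicates 1 and 2 its levels were 2.69 and 2.39 at midlog, against 0.40, 1.30, 1.60 and 1.12 in wt1 replicates 1 and 2 and wt2 replicates 1 and 2. They were 3.93 and 4.06 at starvation, against 1.40, 1.36, 2.73 and 1.82, and 2.45 and 2.86 at 5 min, against 1.36, 0.42, 1.18 and 0.92. At these 3 times both oeSir3 libraries lay above all wild-type libraries. At 30 min they were 1.01 and 0.88, against -0.16, 0.17, 1.35 and -0.42, and at 90 min 1.36 and 1.45, against -0.09, 0.61, 1.78 and 0.22, with wt2 replicate 1 highest both times. At 1 doubling they were 2.87 and 2.64, against -0.43, 0.42, 0.07 and 0.81, and at 2 doublings 2.52 and 2.36, against 0.08, 0.78, -0.68 and 0.75. Those groups lay more than 1.5 apart.

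MRPS5 (limma adjusted p = 0.0020) was within 0.6 of the median gene in every wild-type library except at starvation, and above it in growing oeSir3 cells. It had 1.12 and 1.22 in oeSir3 at midlog, against 0.37, -0.17, -0.52 and 0.02 in the wild types, but 0.00 and 0.57 at starvation, against 0.72, 0.22, 1.12 and 0.87. At 5 min it had 0.69 and 1.02, against -0.17, -0.28, -0.12 and 0.00, at 30 min 0.35 and 0.59, against -0.16, -0.29, -0.25 and 0.12, and at 90 min 0.46 and 1.01, against -0.32, 0.00, -0.14 and -0.22. At 1 doubling it had 1.76 and 1.72, against -0.03, -0.31, -0.38 and -0.23, and at 2 doublings 1.29 and 1.55, against -0.28, -0.26, -0.34 and -0.51. The groups overlapped at starvation only. Its mean difference was just past the threshold on size and fell short of it without oeSir3 replicate 2 (0.86), wt1 replicate 2 (0.97) or wt2 replicate 1 (0.98).

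MRPL38 (limma adjusted p = 0.00263) lay above all wild-type libraries at 6 of the 7 times. It had 2.04 and 2.55 in oeSir3 at midlog, against 1.29, 0.84, 1.54 and 1.08 in the wild types, 2.06 and 2.71 at starvation, against 1.37, 0.78, 1.97 and 1.27, and 1.28 and 2.19 at 5 min, against 0.56, -0.20, -0.18 and 0.32. It had 0.97 and 1.47 at 30 min, against 0.45, 0.03, 0.93 and 0.67. The 90 min libraries, with 1.17 and 1.48 against 0.59, 0.58, 1.50 and 0.85, were the ones that overlapped. At 1 doubling it had 2.53 and 2.74, against 0.75, 0.24, 0.70 and 0.27, and at 2 doublings 2.19 and 2.98, against 0.36, 0.46, 0.32 and 0.74.

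The time course of the members also differed in oeSir3. By the F test 27 of 42 were called, where 43.6% of all genes were, with 17 to 30 when any 1 series was left out, 17 without either oeSir3 series, and 41 with a replicate block. The smallest adjusted p-values belonged to 3 small-subunit genes, MRPS35 (2.67e-09), MRPS5 (1.13e-08) and MRPS9 (1.23e-08, limma). MRPS35 had 2.10 and 1.998 in oeSir3 at midlog, against 1.03, 0.01, 0.56 and 0.60 in the wild types, and 0.00 and -0.23 at starvation, against 0.37, 0.09, 0.81 and 0.28. It had 2.70 and 2.31 at 1 doubling, against 0.71, 0.30, 0.52 and 0.38. MRPS9 had 2.46 and 2.39 in oeSir3 at midlog, against 1.22, 0.98, 1.58 and 1.20 in the wild types. It had 0.35 and -0.09 at starvation, against 0.85, 0.83, 0.27 and 0.88, and 2.89 and 2.86 at 1 doubling, against 1.19, 0.67, 1.02 and 0.81. Both oeSir3 libraries were above all wild-type ones in growing cells, while at starvation both were below them for MRPS35 and 1 was for MRPS9.

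Taken time by time, a set of contrasts chosen after the data had been seen, the members were highest in oeSir3 at 1 and 2 doublings. At midlog 16 of 42 rose and none fell, where 6.16% of all genes rose, with a median of 0.93; without oeSir3 replicate 1 or 2 the count was 10 or 9. At starvation 4 rose and 5 fell, where the shares over all genes were 23.6% and 12.8%, and the median was -0.01 over the members and 0.27 over all genes (4 called in all without oeSir3 replicate 2). At 5 min 9 rose, where 13.5% of all genes did, with a median of 0.55. At 30 min none was called (limma; 7 at an unadjusted p under 0.05), where 8.03% of all genes were, with a median of 0.15 (1 called without wt2 replicate 1). At 90 min 5 rose and 1 fell, where the shares over all genes were 6.27% and 8.78%, with a median of 0.42 (1 called without oeSir3 replicate 1). At 1 doubling 29 rose, where 7.17% of all genes did, with a median of 1.73, and at 2 doublings 30 rose, where 7.42% did, with a median of 1.57. None fell at these 2 times and all 42 differences were positive. Both oeSir3 libraries lay above all 4 wild-type libraries for 36 members at 1 doubling, where 18.6% of all genes did so, and for 40 members at 2 doublings, where 18% did.

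Both oeSir3 series are in the shared batch. The rises at 1 and 2 doublings numbered 22 to 29 and 21 to 30 when any 1 series was left out, 33 and 32 without the libraries in doubt, and 34 and 34 within the shared batch. At 2 doublings MRPL24 had 2.21 and 2.86 in oeSir3, against -0.39, 0.01, -0.34 and -0.04 in the wild types (2.72 ± 0.37, limma adjusted p = 5.30e-08). MRPL37 had 2.71 and 2.64, against 0.02, 0.49, -2.25 and 1.22 (2.80 ± 0.80, limma adjusted p = 0.00948), where wt2 replicate 1 widened the gap. MRPL32 had 3.01 and 3.45, against 1.17, 1.34, -0.26 and 0.89 (2.45 ± 0.52, limma adjusted p = 3.68e-04). Small-subunit genes differed by similar amounts, with 1.99 ± 0.24 for MRPS35, 1.77 ± 0.21 for MRPS5 and 1.67 ± 0.23 for MRPS9 (limma adjusted p = 1.49e-09, 1.42e-09 and 4.32e-08). The 12 members that did not pass at 2 doublings had differences from 0.72 (MRPL39, with 2.86 and 3.02 in oeSir3, against 3.29, 1.15, 3.00 and 1.43 in the wild types) to 1.78 (MRPL44, the mL53 protein, ± 0.85).

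The 4 rises and 5 falls among the 42 members at starvation were no larger shares than the 23.6% and 12.8% over all genes. MRPL28 rose by 2.17 ± 0.41 (limma adjusted p = 1.61e-05), and MRPL27, the mL41 protein, with 1.77 and 3.03 in oeSir3, against 0.17, -0.41, 2.15 and 0.93 in the wild types, rose by 1.69 ± 0.47 (limma adjusted p = 0.00245), although its groups overlapped. MRPS17 (1.50 ± 0.63) and MRPL38 (1.04 ± 0.30) also rose. MRPL11, the uL10 protein of the stalk base, had -1.16 and -1.07, against 0.67, -0.13, 0.27 and 0.36, a difference of -1.40 ± 0.30 (limma adjusted p = 1.04e-04). MRPL7, the uL5 protein, had -0.89 and -0.73, against 0.47, -0.26, 0.84 and 0.78, a difference of -1.27 ± 0.29 (limma adjusted p = 2.65e-04). MRPL4 (-1.40 ± 0.37), MRPL32 (-1.38 ± 0.52) and MRPL1 (-1.26 ± 0.45) also fell. The falls rest on few reads at the median base in oeSir3 replicates 1 and 2. These reads were 5 and 1 for MRPL11, 8 and 4 for MRPL7, 11 and 2 for MRPL4, 4 and 0 for MRPL32, and 24.5 and 8 for MRPL1. With the pseudocount, a gene at 0 has a level of -1.76 and -1.20 in these libraries, so the lowest levels, and the differences made from them, lie near that limit and are not exact. Replicate 2 is one of the libraries in doubt, and without the libraries in doubt 4 members in all were called at starvation. The per-library median of the members on the spike-in scale at starvation was -2.49 and -2.02 in oeSir3 and -1.49 to -0.51 in the wild types, and at 1 doubling it was 2.79 and 2.96 in oeSir3 and 0.12 to 1.16 in the wild types. The median of all genes on that scale was also lower in starved oeSir3, at -3.30 and -3.86, against -2.79 to -1.71 in the wild types, and at 1 doubling it was 0.34 and 0.31 in oeSir3 and -0.85 to 0.50 in the wild types.

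**Figure D5:**
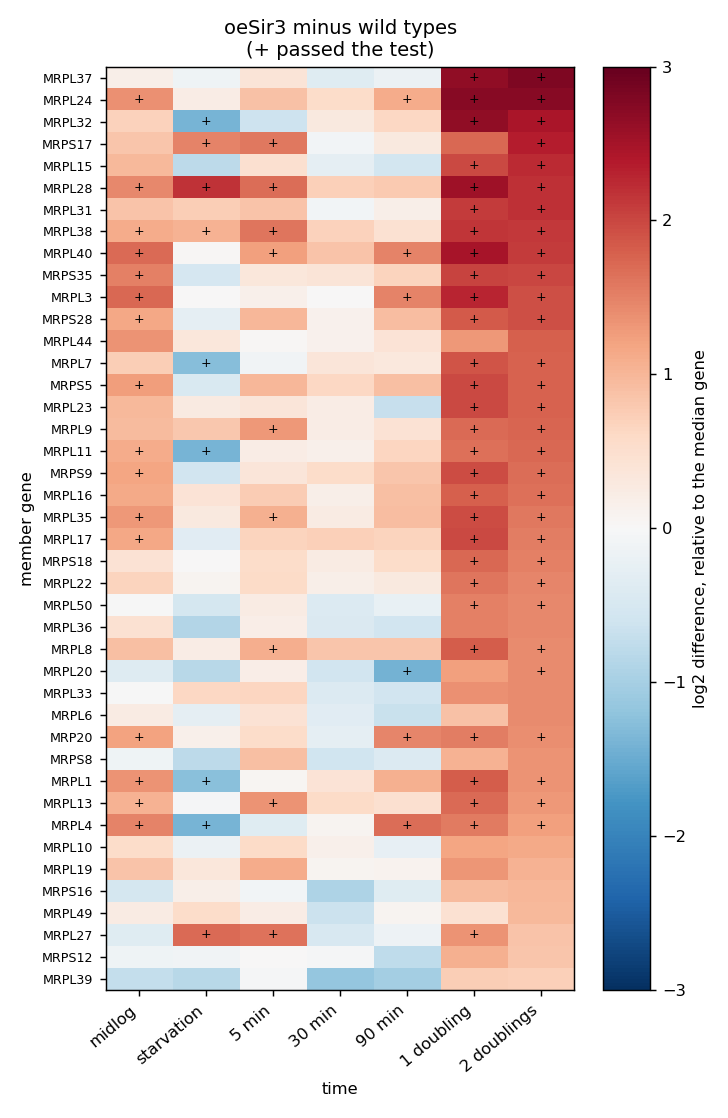
Difference of oeSir3 from the wild types for each of the 42 members at each time (log2, relative to the median gene; red higher and blue lower in oeSir3; + marks members that passed the test), ordered by the difference at 2 doublings. The last 2 columns are red throughout, while starvation holds both colours.

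Within oeSir3, which has 2 libraries a time and was not tested against itself, the per-library medians of the members ran from 0.87 to 2.66. They were 2.06 and 2.31 at midlog, 1.28 and 1.37 at starvation, 1.31 and 2.004 at 5 min, 0.87 and 1.13 at 30 min, 1.36 and 1.49 at 90 min, 2.45 and 2.66 at 1 doubling and 2.28 and 2.52 at 2 doublings. The median difference was -0.79 at starvation against midlog, from -3.83 for MRPL32 to 1.65 for MRPL27, and 1.18 at 1 doubling against 90 min, with all 42 positive. In the 10 libraries of the other 5 mutants, the medians ran from 1.00 to 1.38 at midlog, 0.93 to 1.39 at starvation, 0.18 to 1.24 at 5 min, 0.01 to 0.71 at 30 min, 0.52 to 1.22 at 90 min, 0.72 to 1.25 at 1 doubling and 0.65 to 1.19 at 2 doublings. All of them lay below both oeSir3 libraries at midlog, at 5 min, 30 min and 90 min and at both doublings.

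Other genes of mitochondrial translation and respiration were counted in oeSir3 at 2 doublings, where 7.42% of all genes rose and 4.85% fell. There 15 of 23 other small-subunit genes rose (median 1.46), as did 5 of 7 other large-subunit genes (median 1.57), 7 of 8 translation factors (median 2.02), 11 of 12 tRNA synthetases (median 1.29), 6 of 14 translation activators (median 0.87), 2 of 9 assembly and membrane genes (median 0.66) and 2 of 4 genes of mitochondrial DNA expression (median 0.66). Of the 30 respiratory genes 27 rose (median 2.46), and HAP4 rose by 3.32 ± 0.61 (limma adjusted p = 3.38e-05). Values of other regulators at this time are not given here, and a link of HAP4 to these rises was not tested. Among 104 cytosolic ribosomal protein genes none rose and 1 fell (median -0.75). At starvation, 21 of the 30 respiratory genes and 72 of the 104 cytosolic ribosomal protein genes fell in oeSir3 against the wild types, where 12.8% of all genes did (medians -2.19 and -2.58).

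How far members moved together was described by the Pearson r of each member's group means with the median of the other members, without a test, since the points share libraries and depth. Over the 49 groups of glucose-grown strains r ran from 0.08 to 0.88 with a median of 0.57, and 30 of 42 members were above 0.5. MRPL38 (0.88), MRPL50 (0.84) and MRPL13, the mL50 protein (0.81), followed the other members most, and MRPL17 (0.08), MRPS35 (0.08) and MRPL44 (0.13) least. With the 7 oeSir3 groups added, r ran from 0.38 to 0.91 with a median of 0.75, and 38 members were above 0.5.

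The reads behind these values, as depth at the median base, differ between members. Only 12 of 42 members had at least 10 reads in every library, and 40 were never at 0. MRPL49, the member with the lowest level, had a median of 5.5 reads and was at 0 in 5 libraries. Counting strand is not given in the sources used here, so members that overlap another gene cannot be told apart from it.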

How the data were processed

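Strains and times were taken from the labels. Per the labels' protocols, poly(A) RNA of each culture, mixed with S. pombe RNA, was sequenced from stranded kits. The submitters' processing notes list CASAVA 1.7.0 and, for S. pombe, ASM294v2; for the aligner and the S. cerevisiae build, nothing is given in the sources used here. Each deposited value is, per the file headers, the log2 of a coding sequence's median coverage after the authors scaled it to the spike-in. Taken out of log2, 76.7% to 90.7% of them were whole reads and the rest lay midway between whole reads (tolerance 0.002). The value standing for coverage of 0 (344 to 1173 genes a library) was set to 0. The plan had expected linear values, so log2(linear value + 0.03) was tested, which understates changes of low genes.

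Genes above 0.15 in at least 4 libraries were kept. R 4.3.3 with limma 3.58.1 fitted all libraries (56 groups, 56 residual degrees of freedom) for times and F tests, and the 16 series means over 7 times (8 residual degrees of freedom) for strains, all two-sided and adjusted over all 5567 genes. For F tests the adjusted p alone made a call. Fits of single libraries take no account of libraries sharing a series. Tables and plots used Python 3.11.15, numpy 2.4.6, pandas 2.3.3 and matplotlib 3.10.9, and the tests were tried on simulated data. R64 gave names for 5694 genes and coding lengths, and no coordinates or sequences were used here; a planned description of promoter motifs was not made. Members and lists were chosen with earlier results of these data known. Named members are, beside the 2 highest and 2 lowest at midlog, the 3 largest and 3 smallest differences in each wild-type step and up to 3 called members with the smallest adjusted p per strain comparison; other lists name their extremes at starvation. Further members are named for a count or a contrast by time, after their values were seen. Alternatives were the pseudocount, the filter, the scaling, a term for coding length, leaving out series or libraries in doubt, batches, a replicate block and other controls.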

Additional observations from a re-analysis of the deposited data

Results flagged for a closer look

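Of the 77 sets of 4 wild-type libraries examined for the named members and the members' median, 8 held a library far from the other 3. The rule flags about 1 in 20 independent sets by chance. Many named members were picked for extreme values in these libraries, and the sets share libraries, so that rate does not apply here. In all 8 that library was wt2 replicate 1, which is among the libraries in doubt at 6 of the 7 times. It stood highest for MRPS16 at midlog (5.51), 5 min (5.07) and 30 min (3.96), for MRPL32 at midlog (2.45), for MRPS18 at starvation (3.78), for MRPL50 at 90 min (3.44) and for the median of the 42 members at 90 min (1.45). It stood lowest for MRPS9 at starvation (0.27).

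The time course differed between oeSir3 and the wild types for 27 of 42 members by the limma F test, a test of the difference itself. The same test called 43.6% of all genes, so the difference is not particular to the members. The strain background, the medium and the SIR3 level cannot be told apart there.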

How the results depend on the processing

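Of 440 alternative counts of called members, 380 stayed within 1.5 times the value reported and 60 moved. Of 555 alternative values of single members, 500 kept their direction and their side of the threshold. Of the others, 23 gained a call, 16 lost one, 16 moved without a call and none turned its sign past the threshold. The causes of these moves were not tested. Shares over all genes are not given for the alternative counts. At starvation against midlog the 3 calls became 5 when centred on the 75th percentile gene and 9 by adjusted p alone, and the 41 on the spike-in scale became 20 within the separate batch. At 5 min against starvation the 1 call became 4 at the 75th percentile, 4 length adjusted, 4 without the 12 libraries in doubt, 0 within the separate batch, 6 within the shared batch and 7 by adjusted p alone, and the 0 on the spike-in scale became 3 within the shared batch. At 30 min against 5 min the 0 calls became 1 within the shared batch and 3 by adjusted p alone, and the 12 on the spike-in scale became 2 without the libraries in doubt, 0 within the separate and 24 within the shared batch. For oeSir3 in the mean of 7 times, the 9 calls became 5 with a pseudocount of 0.1, 5 with the value for coverage of 0 kept, 15 length adjusted, 15 by adjusted p alone and 20 within the shared batch. For oeSir3 by time, starvation went to 2 with a pseudocount of 0.1 and 4 without the libraries in doubt. At 5 min it went to 5 with that pseudocount, 16 length adjusted and 14 within the shared batch, at 30 min to 1 length adjusted, 1 without the libraries in doubt and 1 within the shared batch, and at 90 min to 10 at the 75th percentile and 15 length adjusted. Leaving out 1 series at a time gave 2 to 4 calls at starvation, 0 to 5 at 5 min, 0 to 1 at 30 min, 0 to 3 at 1 doubling and 0 to 14 at 2 doublings, and 31 to 41 at starvation and 0 to 7 at 30 min on the spike-in scale. It gave 0 to 2 in Sir2D and 0 to 1 in Sir4D for the mean of 7 times, 0 to 7 in Sir2D, 0 to 8 in Sir3D and 0 to 8 in Sir4D for the F test, and 5 to 12 and 17 to 30 in oeSir3. By time, oeSir3 gave 9 to 19 at midlog, 4 to 9 at starvation, 6 to 11 at 5 min, 0 to 1 at 30 min and 1 to 8 at 90 min. The labels tie libraries of the same replicate number to no shared culture or day. Their deviations at 2 times correlated over 0.1 in all 21 pairs of times in wt1, Sir2D, Sir3D, Sir3_3xT7 and Sir3_3xHA (median r 0.48 to 0.61), but in 16 of 21 in wt2 (median 0.65), 20 in oeSir3 (0.31) and 12 in Sir4D (0.19), so the pairing is a hint from the data and was not made the reported design. A replicate block changed the calls to 1 at 1 doubling, 8 at 2 doublings against midlog, 24 on the spike-in scale at 30 min, 1 on the spike-in scale at 2 doublings, 2 in the F test of Sir3D and 41 in that of oeSir3. Depth limits the weakest members, since MRPL49 had under 10 reads in 75 libraries.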
